A study of Mus musculus with 6 samples.

Results

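The interleukin-6 (IL-6) and leukaemia inhibitory factor (LIF) family was examined in cultures of enteric glial cells (EGCs), which accompany the neurons of the gut. Its 10 members were taken by gene symbol from the 46603 gene identifiers counted: the ligands Il6, Lif, Il11, Clcf1 and Osm, and the receptor genes Il6st, Lifr, Il6ra, Osmr and Il11ra1. Each symbol matched 1 identifier, and all 10 passed the filter on low counts. Bulk RNA sequencing had been done on 3 control and 3 LPS libraries. All 6 came from C57BL/6J mouse embryonic gut (E14.5), grown as floating neurospheres with EGF and FGF and then attached in medium with serum until confluent. The LPS cultures received 100 ng/ml lipopolysaccharide, a component of the outer membrane of Gram-negative bacteria, for 12 h, and the controls received none. The sources used here do not say how many embryos went into a culture or whether the replicates were separate cultures, so p-values measure the spread between these libraries, which may be technical.

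Cytokines of this family share 1 signalling chain, gp130, encoded by Il6st. IL-6 and IL-11 first bind their own receptor chains (Il6ra and Il11ra1) and then gp130, LIF engages the LIF receptor (Lifr) with gp130, and oncostatin M (Osm) acts in mice mainly through the oncostatin M receptor (Osmr) with gp130. Cardiotrophin-like cytokine factor 1 (Clcf1) is bound by Cntfr, which joins Lifr and gp130. Janus kinases on these chains phosphorylate STAT3, and SOCS3, itself a STAT3 target, blocks gp130. LIF and Clcf1 are known as factors that support neurons, and IL-6 is a cytokine of acute inflammation that macrophages, fibroblasts and glia can all secrete. The comparison here concerned family transcripts at rest and after LPS in whole cultures, which also held transcripts of other cell types.

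Upstream sequence was available for 8 of the 10 members as RefSeq windows of 250 bases before to 50 bases after a start site (build GRCm38.p6), 11 windows in all. Windows for Clcf1 and Osm were not used here. The sequences of Il6, Lif and Il11 are shown because they are the ligand genes with a window, and they hold 5 of the 6 motif matches found in the family. Each is the 250 bases before the start, 5′ to 3′ on the strand of the gene, with the matches in capitals. Il6, chr5:30012864-30013113 on the plus strand, carries from left to right an AP-1 match, a C/EBP match and an NF-kB match. Lif, chr11:4257318-4257567 on the plus strand, carries an AP-1 match. Il11, chr7:4778142-4778391 on the minus strand, carries an AP-1 match before the more downstream of its 2 annotated starts.
Il6: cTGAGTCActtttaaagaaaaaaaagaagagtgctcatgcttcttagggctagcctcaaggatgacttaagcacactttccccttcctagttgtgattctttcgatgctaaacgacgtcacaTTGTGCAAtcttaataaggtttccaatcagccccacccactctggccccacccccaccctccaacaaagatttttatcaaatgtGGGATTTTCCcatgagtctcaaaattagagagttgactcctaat
Lif: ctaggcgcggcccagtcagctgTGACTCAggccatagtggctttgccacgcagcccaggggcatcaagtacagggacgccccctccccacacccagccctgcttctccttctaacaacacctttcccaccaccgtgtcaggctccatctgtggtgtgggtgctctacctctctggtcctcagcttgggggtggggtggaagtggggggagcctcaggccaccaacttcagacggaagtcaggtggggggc
Il11: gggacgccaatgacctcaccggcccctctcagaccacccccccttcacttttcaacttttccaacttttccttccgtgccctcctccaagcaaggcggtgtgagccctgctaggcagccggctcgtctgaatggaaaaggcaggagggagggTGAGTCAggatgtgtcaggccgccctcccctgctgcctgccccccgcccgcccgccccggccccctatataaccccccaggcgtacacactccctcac

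Counted back from the start, the Il6 matches lay at bases -249 to -243 (TGAGTCA), -128 to -121 (TTGTGCAA, matching on the opposite strand) and -44 to -35 (GGGATTTTCC). The Lif match was TGACTCA at -228 to -222, and the Il11 match was TGAGTCA at -98 to -92. The remaining match, an AP-1 heptamer, lay in the Osmr window after the start, at bases 4 to 10. The letters searched on both strands were TGANTCA for AP-1, TTGCNNAA for C/EBP, TTCNNNGAA for STAT and TATAAA for the TATA box, together with the NF-kB consensus. They overlapped each other in none of these windows. Among all 32851 RefSeq windows of the same length, AP-1 was found in 7.81%, C/EBP in 10.8%, NF-kB in 4.51%, STAT in 8.3% and the TATA box in 13.6%. None of the 11 windows of the family held the STAT or TATA letters, which says only that these letters are absent from these windows.

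To place the values that follow, library totals were 18775316 to 23664312 counts, and values are counts scaled to a common normalised library size (CPM). A gene with 3 counts or fewer, 0.124 to 0.167 CPM, was taken as at the detection floor, and floors cover counting error only. All 8 glial markers were above it in every library, with summed CPM of 733 to 1006 in control and 744 to 769.8 in LPS, and 2 of them, S100b (-1.91, edgeR adjusted p = 0.0238) and Cdh19 (-0.66, 0.0457), were called lower. The libraries also held mesenchymal transcripts (7 markers, 14819 to 15889 summed CPM over both groups), of which Dcn (0.90, edgeR adjusted p = 0.0118) and Pdgfra (0.50, 0.0114) were called higher, and with the replicate block Lum and Thy1 were called lower. Summed smooth muscle markers were 2266 to 2492 CPM in control and 634 to 900 in LPS, and all 6 were called lower. Of 14 macrophage markers, 13 were above the floor in all 6 libraries. The sum of the 14 was 4349, 5687 and 13593 CPM in control replicates 1, 2 and 3. In those of LPS it was 4252, 5525 and 21333 CPM. Without Lyz2 the sums were 1462, 2197 and 5615 CPM in control and 1868, 2456 and 9853 CPM in LPS. Replicate 3 stood apart in both groups, and 1 of the 14, Adgre1, was called higher, whereas with the replicate block 5 were called higher (Adgre1, Aif1, Ptprc, Fcgr1 and Cd14) and 3 lower (Cd68, Mrc1 and Cx3cr1). Of 7 lymphocyte markers, Cd4 alone was above the floor (1.39 to 5.99 CPM) and Cd3e and Cd3d had no count. Of 5 mast cell markers, Kit alone was above it (18.4 to 79.9 CPM in control, 10.05 to 13.5 in LPS, called lower) and Mcpt4, Tpsb2 and Fcer1a had no count. Of 6 neutrophil markers, 5 were at or under the floor, and S100a8 was called higher (0.127 to 0.827 CPM in control, 4.03 to 14.9 in LPS). Of 5 epithelial markers, Krt8 (0.576 to 2.19 CPM) and Cdh1 were above the floor in every library and Cdx2 had no count. Of all tested genes 9.09% were called higher and 6.71% lower, and 15.4% and 14.9% with the replicate block. Whether these other cell types contributed to the values of the members was not tested.

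In the LPS libraries 3 of the 5 ligand transcripts and 1 of the 5 receptor transcripts were called higher than in control. Another receptor transcript was called lower. Among the members called by the test, Il6 showed the widest difference (34.6-fold), followed by Lif (5.68-fold), Clcf1 (2.44-fold) and Osmr (2.16-fold), while Il11ra1 was 1.31-fold lower. By the edgeR quasi-likelihood test at an adjusted p under 0.05, 4 of 10 members were called higher, against 9.09% of all 15226 genes tested, and 1 was called lower, against 6.71%. In either direction 15.8% of tested genes were called. The median log2 fold change was 0.95 over the members, 1.28 over the ligands and 0.28 over the receptors, beside -0.02 over all tested genes. Libraries with the same replicate number deviated together, but replicate 3 stood apart from replicates 1 and 2, which were not told apart. The use of the number as a block was thus chosen from these same counts. With the number as a block 5 members were called higher and 1 lower, beside 15.4% and 14.9% of all tested genes. The added member was Osm.

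**Figure D1:**
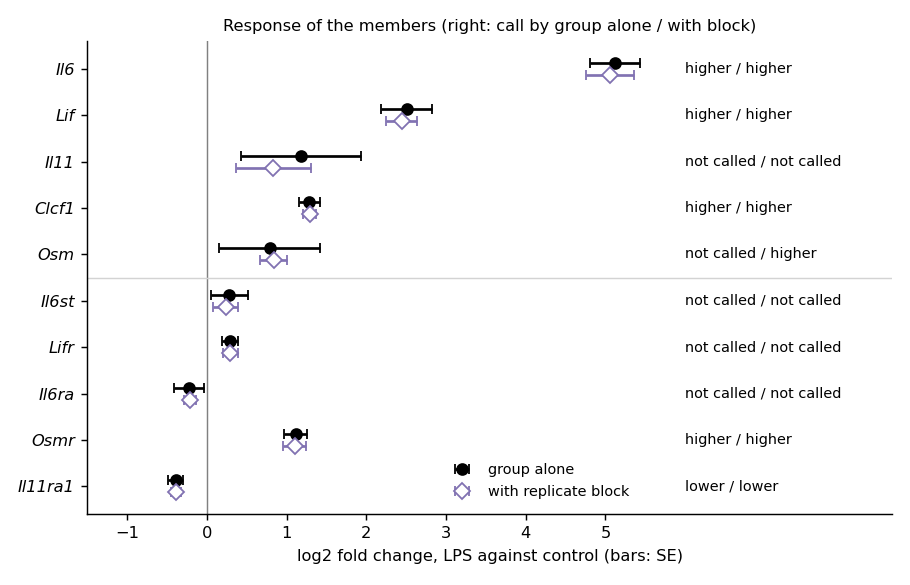
Log2 fold change of each member (x axis) between LPS and control, with the SE as bars, from the fit on group alone (filled circles) and with the replicate number as a block (open diamonds). Il6 stands at 5.11 and Lif at 2.51, Clcf1 at 1.28 and Osmr at 1.11, and the long bars of Il11 and Osm in the fit on group alone (SE 0.75 and 0.63) cover a large share of their distance from 0.

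Il6 (ENSMUSG00000025746, chr5:30013114-30019981, plus strand), the family's founding cytokine, was low in controls, at 6.19, 5.49 and 7.44 CPM in replicates 1, 2 and 3. In the LPS libraries it stood at 197, 308 and 158 CPM. Every LPS library lay far above every control, and within LPS replicate 2 was highest and replicate 3 lowest. Mean levels were 6.37 ± 0.988 and 221 ± 77.9 CPM (SD, n = 3 each). This gave a log2 fold change of 5.11 (SE 0.31, edgeR adjusted p = 0.000656). Over 15 alternative fits the log2 fold change of Il6 stayed between 4.80 and 5.45, and the highest adjusted p was 0.0105. Same-numbered libraries gave log2 ratios of 4.99, 5.81 and 4.41.

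Lif (ENSMUSG00000034394, chr11:4257557-4272514, plus strand), a neuropoietic cytokine, was at 17.5, 15.8 and 13.3 CPM in control replicates 1, 2 and 3. LPS replicates 1, 2 and 3 had 102, 112 and 51.2 CPM. The groups did not overlap, and LPS replicate 3, the library with the highest macrophage marker sum, had the least Lif of the LPS libraries. The log2 fold change was 2.51 (SE 0.32, edgeR adjusted p = 0.00734), and without control replicate 2 it was 2.53 with an adjusted p of 0.0535.

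Clcf1 (ENSMUSG00000040663, chr19:4214238-4223490, plus strand), a ligand that acts through Cntfr, Lifr and gp130, was close among the replicates of a group. It was at 13.6, 10.8 and 13.5 CPM in the control libraries and at 31.8, 28.1 and 32.4 CPM in the LPS libraries. All 3 LPS libraries were higher than all 3 controls, and within LPS replicate 3 was the highest. The log2 fold change was 1.28 (SE 0.13, edgeR adjusted p = 0.00341), and the call held in 15 of 15 alternative fits, with adjusted p-values up to 0.0211. An annotated gene model on the same strand covers 8.17% of the exon bases of Clcf1, and 6.77% of its 50-base words occur in it. That model is not among the gene identifiers analysed here.

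The other 2 ligands were low. Osm (ENSMUSG00000058755, chr11:4236420-4241026, plus strand), a cytokine made chiefly by leukocytes, was at 1.53, 2.04 and 5.41 CPM in control and at 2.62, 4.35 and 8.58 CPM in LPS replicates 1, 2 and 3. The groups overlapped, and replicate 3 was the highest library in both, as it was for the macrophage markers. On group alone the log2 fold change was 0.79 (SE 0.63, edgeR adjusted p = 0.444). Within numbers, LPS was higher in 3 of 3 pairs, with log2 ratios of 0.78, 1.09 and 0.66, and with the replicate block Osm was called (0.84, SE 0.17, edgeR adjusted p = 0.028).

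Il11 (ENSMUSG00000004371, chr7:4772373-4782859, minus strand), a cytokine of stromal cells, was at 1.02, 1.24 and 1.69 CPM in control and at 1.04, 1.39 and 6.54 CPM in LPS. LPS replicate 3 alone was above the controls, with 125 counts against 21 and 25 counts in LPS replicates 1 and 2. The log2 fold change was 1.18 (SE 0.75, edgeR adjusted p = 0.337), and without LPS replicate 3 it was -0.12 (adjusted p = 0.823). No difference of Il11 between the groups was shown.

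**Figure D2:**
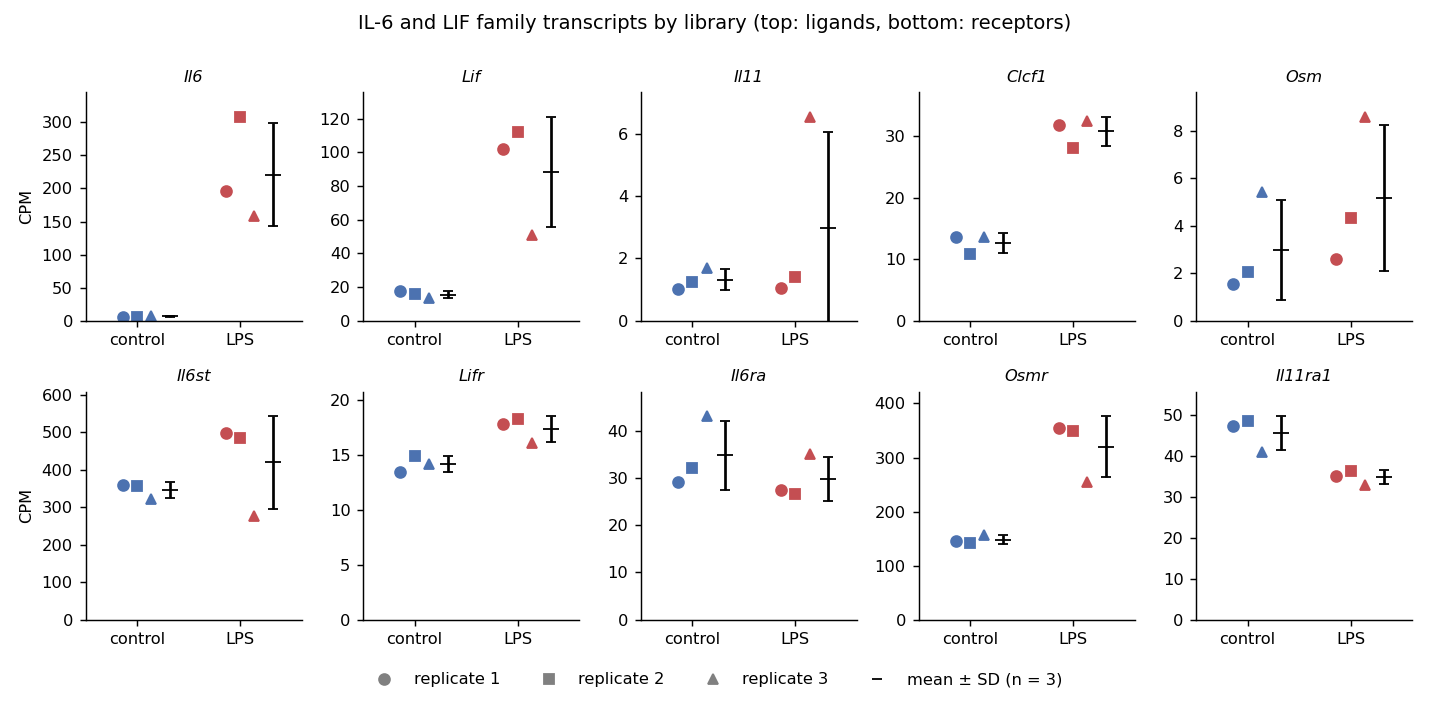
CPM of each member (y axis, from 0) in every control and LPS library, with the replicate number as the symbol and the mean ± SD (n = 3) beside each group (the lower arm for Il11 in LPS stops at 0). Il6, Lif, Clcf1, Osmr and Lifr were higher in 3 of 3 LPS libraries than in any control, whereas Il11 and Osm were highest in replicate 3.

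**Figure D3:**
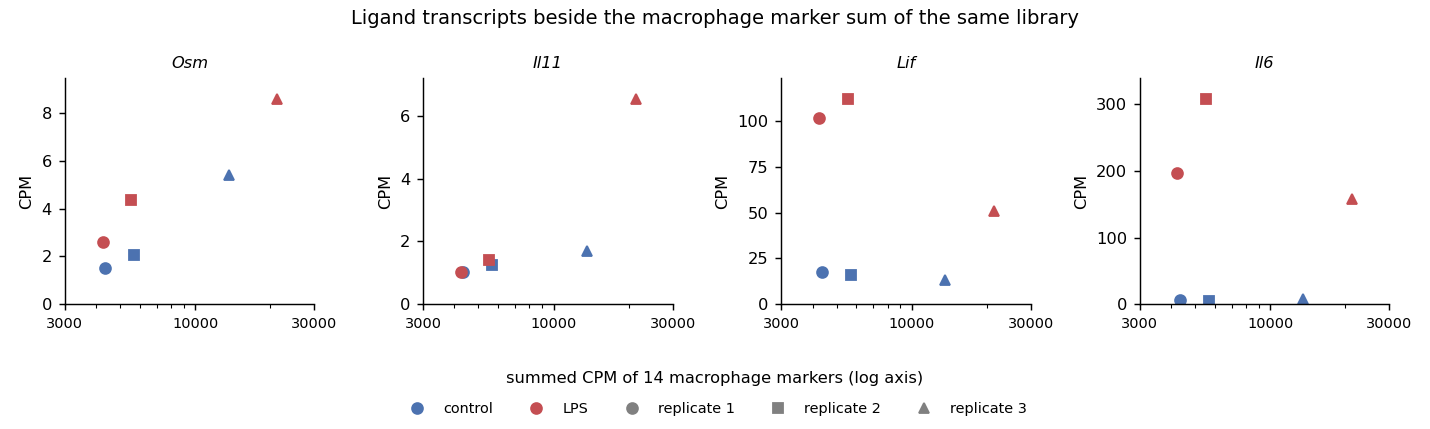
CPM of 4 ligand transcripts (y axis) against the summed CPM of 14 macrophage markers in the same library (x axis, log scale), control in blue and LPS in red, with the replicate number as the symbol. Within each group Osm and Il11 were highest in the library with the highest marker sum (replicate 3), and Lif was lowest in it. Il6 was lowest in that library in LPS but highest in it in control.

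Il6st (ENSMUSG00000021756, chr13:112464070-112510086, plus strand), the shared gp130 chain, was the most abundant member per exon length in control. Its level was 360, 357 and 323 CPM in the controls and 498, 485 and 278 CPM in the LPS libraries. LPS replicates 1 and 2 were above all controls, and LPS replicate 3 was below them. The log2 fold change was 0.28 (SE 0.23, edgeR adjusted p = 0.458). Without LPS replicate 3 Il6st was called higher (0.50, edgeR adjusted p = 0.0121), as it was without replicate 3 of both groups (0.48, adjusted p = 0.00048), a fit chosen after the data had been seen.

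Osmr (ENSMUSG00000022146, chr15:6813577-6874969, minus strand), the gp130 partner for oncostatin M, was the receptor gene called higher. Control replicates 1, 2 and 3 had 146, 141 and 157 CPM. LPS replicates 1, 2 and 3 had 355, 350 and 255 CPM. Every LPS library exceeded every control, with LPS replicate 3 the lowest of its group. The log2 fold change was 1.11 (SE 0.15, edgeR adjusted p = 0.00828). Without control replicate 1 the adjusted p was 0.0504 and without control replicate 2 it was 0.0595, at log2 fold changes of 1.11 and 1.09.

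Lifr (ENSMUSG00000054263, chr15:7090614-7197489, plus strand), the LIF receptor chain, was at 13.4, 14.9 and 14.2 CPM in control and 17.8, 18.3 and 16.1 CPM in LPS. The groups did not overlap, yet the log2 fold change of 0.29 (SE 0.10) gave an edgeR adjusted p of 0.106, and 0.0742 with the replicate block. Without replicate 3 of both groups it was 0.37 (edgeR adjusted p = 0.022). In all, the groups did not overlap for 6 of 10 members, 5 of them higher in LPS, and 38.7% of all tested genes had no overlap.

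The receptor chains of IL-6 and IL-11 were not higher in LPS. Il6ra (ENSMUSG00000027947, chr3:89864059-89913196, minus strand) was at 29.2, 32.1 and 43.1 CPM in control and 27.5, 26.6 and 35.0 CPM in LPS. The groups overlapped and replicate 3 was highest in each, and the log2 fold change was -0.23 (SE 0.19, edgeR adjusted p = 0.461). Il11ra1 (ENSMUSG00000073889, chr4:41699989-41769474, plus strand) was at 47.5, 48.7 and 41.0 CPM in control and 35.1, 36.4 and 33.0 CPM in LPS. The lowest control stood above the highest LPS library, and the log2 fold change was -0.39 (SE 0.10, edgeR adjusted p = 0.0447). That call lay close to the threshold and was lost in 7 of 15 alternative fits (no count filter, limma-voom, or any single library other than control replicate 3 left out), with adjusted p-values up to 0.179. Of the 50-base words of Il11ra1, 46.3% also occur in near-identical copies (Il11ra2 and a related gene model). Its counts are thus uncertain where the counting could have split or dropped shared reads. No identifier of Il11ra2 had a count in any library, and the handling of shared reads was not tested. In bulk libraries, fewer cells of a type and less RNA per cell cannot be told apart.

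To compare levels between genes, CPM were divided by exon length. On this scale (CPM per kilobase of exon) Il6st led the controls at 31.2 ± 1.82, followed by Osmr at 12.2 ± 0.66 and Il11ra1 at 10.2 ± 0.918 (SD, n = 3), and no library ranges of these neighbours overlapped. Il6ra, Lif, Clcf1, Il6, Osm and Lifr then descended from 4.02 to 1.32 with overlapping ranges between neighbours, and Il11 was lowest at 0.633 ± 0.166. In LPS the order opened with Il6 at 91.0 ± 32.1, apart from all others, and Il6st (37.9 ± 11.1), Osmr (26.4 ± 4.67) and Lif (20.3 ± 7.51) came next with ranges that overlapped between neighbours. Clcf1 (8.08 ± 0.612) and Il11ra1 (7.80 ± 0.386) overlapped, as did Il6ra, Osm, Lifr and Il11 from 3.44 to 1.44.

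Among all tested genes on the same scale, Il6 lay at percentile 35.6 in control and 96.7 in LPS, and Lif at 42.3 and 82.6. Il6st was at percentile 90.5 and 91.1. Ratios of these levels were taken within each library. The ratio of Il6 to Lif was 0.632, 0.624 and 0.998 in the controls and 3.46, 4.92 and 5.54 in the LPS libraries. That of Il6st to Osmr was 2.69, 2.76 and 2.25 in control and 1.53, 1.51 and 1.19 in LPS. Il6 thus passed from at most the level of Lif to several times that level, while the level of Osmr came closer to that of its partner chain. Osmr stood 8.42 to 9.84 times as high as Lifr in control and 14.1 to 17.8 times in LPS.

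**Figure D4:**
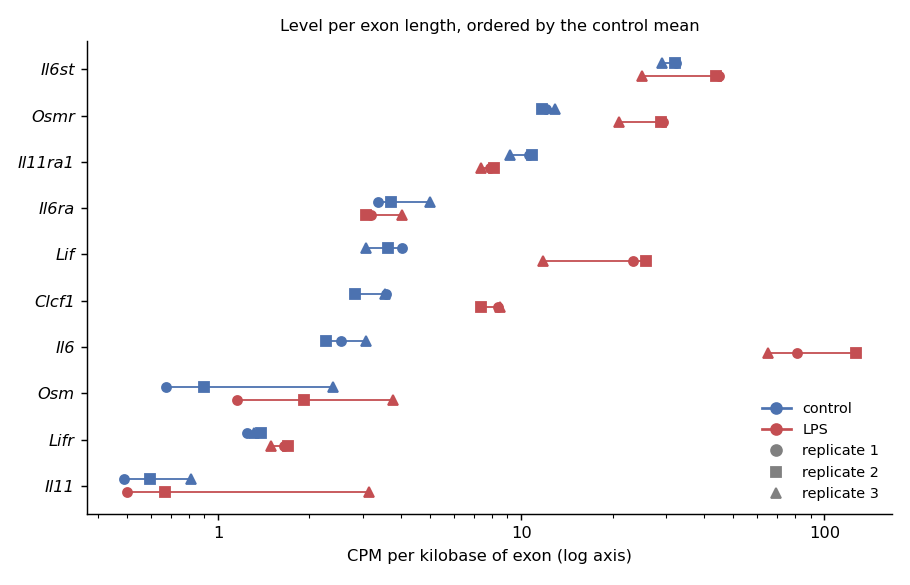
CPM per kilobase of exon (x axis, log scale) of each member, ordered by the control mean, with control libraries in blue, LPS libraries in red and a line over the range of each group. Il6 moves from 2.62, below 6 other members, to 91.0, above all 9, and Il6st and Osmr stay among the highest.

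Some members are neighbours in the genome. Osm and Lif lie 16530 bases apart on the same strand of chromosome 11 with no protein-coding gene between them. Lif was called higher in both fits and Osm in the fit with the replicate block. Osmr and Lifr lie 215644 bases apart on opposite strands of chromosome 15, also with no protein-coding gene between them. The difference between the responses within each pair was not tested.

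The other ligands and receptors of the family were then examined, 11 symbols of which 6 passed the count filter. Il27 and Ebi3, whose products form interleukin-27, were called higher, and none was called lower. Of all tested genes 9.09% were called higher and 6.71% lower. Ebi3 was at 3.01, 5.27 and 8.80 CPM in control and 32.2, 47.9 and 87.8 CPM in LPS (log2 fold change 3.29, SE 0.54, edgeR adjusted p = 0.0157), and its call was lost in 3 of 15 alternatives, each leaving out 1 library, controls 1 and 2 and LPS 2 (adjusted p up to 0.0882). Like the macrophage markers, Ebi3 was highest in replicate 3 of each group. Il27 had 0, 2 and 2 counts in control, at or under the floor, and 1.98, 3.18 and 2.46 CPM in LPS (edgeR adjusted p = 0.00506). Summed over 3 libraries these were 4 and 144 counts, which after scaling to the normalised library sizes is a ratio of 44.2 (95% exact interval 16.9 to 164.5, counting error only). The list's median log2 fold change was 0.25, and between 0.081 (without control replicate 2) and 1.21 (without control replicate 3) when single libraries were left out.

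Cntfr, the receptor chain that binds Clcf1, is given although it was chosen after its values had been seen. It was at 19.2, 17.4 and 9.84 CPM in control and 9.59, 9.03 and 7.33 CPM in LPS. The groups did not overlap, and the log2 fold change of -0.84 had an edgeR adjusted p of 0.0951, or 0.0239 with the replicate block.

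Among 13 signal transducers, 3 were called higher and none lower, beside 9.09% and 6.71% of all tested genes, with a median of 0.25. Jak2, a kinase bound to gp130, rose by 2.65 (SE 0.28, edgeR adjusted p = 0.00371), with the lowest LPS level in replicate 3. Jak1 rose by 0.34 (adjusted p = 0.0477), a call that was lost in 8 of 15 alternatives, among them the fits without any single library other than LPS replicate 3. Stat3, the main transcription factor of the family, was at 257, 256 and 295 CPM in control and 328, 346 and 348 CPM in LPS. These groups did not overlap, at a log2 fold change of 0.34 (SE 0.087) and an edgeR adjusted p of 0.0506, or 0.0229 with the replicate block. With the block, 7 of the 13 were called higher, beside 15.4% of all tested genes.

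Feedback inhibitors of the pathway were also examined. Of 9 genes tested, 4 were called higher and none lower, beside 9.09% and 6.71% of all tested genes, with a median of 0.82. Without LPS replicate 3 the median was 0.15 and 1 gene was called lower. Over all tested genes, single left-out libraries gave 112 to 1426 called lower. Socs3, the inhibitor of gp130, was at 27.1, 25.6 and 31.4 CPM in control and 130, 136 and 192 CPM in LPS (log2 fold change 2.45, SE 0.18, edgeR adjusted p = 0.00136). Socs1, which inhibits Janus kinases, was at 1.99, 2.43 and 1.98 CPM in control and 16.5, 18.6 and 19.7 CPM in LPS (3.09, SE 0.15, adjusted p = 0.0003). The phosphatase gene Ptpn2 rose by 0.82 and Cish, a STAT5 target, by 0.96 (edgeR adjusted p = 0.00328 and 0.0208), the latter with its call lost when LPS replicate 1 or 2 or control replicate 2 was left out. The replicate block brought the number called higher to 6, beside 15.4% of all tested genes.

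Of 23 genes known to respond to STAT3, 15 were called higher and 1, the cyclin gene Ccnd1, lower. Of all tested genes 9.09% were called higher and 6.71% lower. The median of the list was 1.38. When single libraries were left out, 14 to 16 of the list were called higher and 0 to 3 lower. The number lower was 0 when replicate 1 or 2 of either group was left out and 3 without LPS replicate 3. Over all tested genes these fits called 379 to 1964 higher and 112 to 1426 lower. NF-kB, which LPS activates, is also known to drive many genes of this list. The widest differences were those of the acute-phase genes Saa3 (9.53, SE 0.87, edgeR adjusted p = 0.00254) and Lcn2 (9.31, SE 1.09, adjusted p = 0.0055) and of the metalloreductase gene Steap4 (5.60, SE 1.07, adjusted p = 0.0235). Lcn2 was at 1645 and 1643 CPM in LPS replicates 1 and 2 and at 264 CPM in LPS replicate 3, and Steap4 at 270, 266 and 30.3 CPM. The Steap4 call was lost by limma-voom and when replicate 1 or 2 of either group was left out (adjusted p up to 0.1003). Their lowest LPS library was thus the one in which Il6, Lif, Il6st and Osmr were also lowest. Gfap, a glial STAT3 target in astrocytes, was at 3.26, 3.63 and 5.66 CPM in control and 2.77, 2.23 and 7.22 CPM in LPS, with overlapping groups (log2 fold change -0.039, edgeR adjusted p = 0.967).

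Genes that shed the family's receptors or regulate Il6 transcripts were mixed. Of 12, 5 were called higher and 1 lower, beside 9.09% and 6.71% of all tested genes, with a median of 0.14. The number called higher fell to 2 without control replicate 2 and to 3 without control replicate 1 or LPS replicate 1 or 2. Over all tested genes, single left-out libraries gave 379 to 1964 called higher. With the replicate block the protease gene Adam10 was also called lower (-0.40, edgeR adjusted p = 0.0138), beside 14.9% of all tested genes. Adam17, the protease that sheds IL-6 receptor from cells, was at 114, 127 and 155 CPM in control and 251, 262 and 316 CPM in LPS (log2 fold change 1.07, SE 0.15, edgeR adjusted p = 0.0104, and 0.0659 without control replicate 2). Timp3, an inhibitor of that protease, was at 1262, 1087 and 1083 CPM in control and 299, 241 and 345 CPM in LPS (-1.96, SE 0.16, adjusted p = 0.00176). No overlap was seen for either gene, and they moved in opposite directions. Zc3h12a, whose product degrades Il6 RNA, rose by 3.87 (SE 0.24, edgeR adjusted p = 0.000634), and Arid5a, whose product stabilises it, by 1.40 (SE 0.31, adjusted p = 0.0352). The Arid5a call was lost in 5 of 15 alternatives, those without any single library other than control replicate 3. Nfkbiz, encoding a nuclear NF-kB cofactor for Il6 transcription, rose by 2.52 (SE 0.18, edgeR adjusted p = 0.00124).

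**Figure D5:**
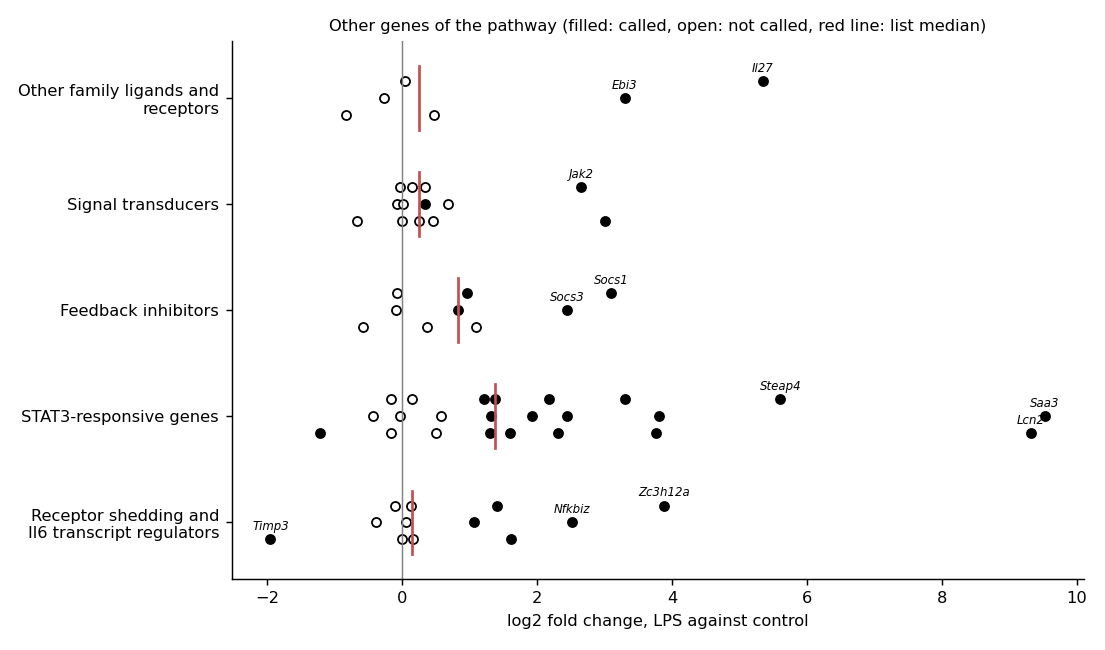
Log2 fold change (x axis) of each tested gene in the 5 lists, filled where the edgeR test called it and open where it did not, with the list median as a red line. The medians run from 0.14 for receptor shedding and Il6 transcript regulators to 1.38 for STAT3-responsive genes, beside -0.02 for all tested genes.

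Finally, the genes whose levels most resembled a member's were listed by the Pearson correlation of log2(CPM + 1) over the 6 libraries, among 11831 genes. The 5 nearest to Il6 were Ptpn12, Sav1, Nfkbia, Junb and Gbp4, each at r = 0.998 or 0.999. For Lif they were Cxcl5, Dcn, Dusp16, Mmp3 and Cxcl1, and for Osmr they were Spidr, Prdx6, Mt2, Slc16a1 and Il13ra2. All 6 libraries share 1 contrast, so any gene that differs between the groups with a like spread scores high, and the values are a description.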

How the data were processed

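Poly(A) RNA of EGCs was sequenced in 3 control and 3 LPS libraries. The deposited values are unnormalised gene counts, as whole numbers. Per the labels and the submitters' processing notes, the authors trimmed reads (cutadapt 1.15), removed contaminants (Bowtie2 2.3.3.1), aligned to GRCm38 (STAR 2.5.2b, SAMtools 1.5) and list featureCounts 1.5.3. The strand setting and the treatment of reads with several alignments are not given in the sources used here, so genes sharing sequence or overlapping another gene are uncertain. A further table holding the same columns was not used.

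From these counts, genes were filtered with filterByExpr (minimum count 10, total 15), which left 15226, and scaled with TMM factors of 0.917 to 1.08. Groups were compared with the two-sided edgeR 4.0.16 quasi-likelihood test in R 4.3.3, with group in the model and p-values adjusted by Benjamini-Hochberg over every tested gene. Calls were made at an adjusted p under 0.05. Exon lengths and coordinates came from GENCODE M21 (GRCm38), and promoter windows from RefSeq. The test was also run on simulated counts without any replicate effect, so that run says nothing about the replicate differences seen here.

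The members, gene lists, alternatives and naming rule were chosen with earlier results of these data known. Named were all 10 members, every called gene of the other family genes and the feedback inhibitors, the 3 called genes with the largest absolute change of each other list, and Stat3, Gfap, Adam17, Zc3h12a and Arid5a. Some genes that entered the tests and counts are not reported here by name. Replicate numbers came from the sample titles, which do not say what a number stands for. Deviations from group means correlated across genes between same-numbered libraries (r = 0.58, 0.39 and 0.64), so the numbers were taken to pair the samples. Numbers 1 and 2 were not told apart by this measure (control 1 with LPS 2, r = 0.47, and control 2 with LPS 1, r = 0.40). Alternatives were other scaling (RLE, upper quartile or total counts), 2 filters (none, and a minimum of 10 counts per library), DESeq2 1.42.0, limma-voom (limma 3.58.1), the replicate block, each library left out in turn, and replicate 3 of both groups left out, the last chosen after seeing the data.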

Additional observations from a re-analysis of the deposited data

How the results depend on the processing

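Il6 and Clcf1 were called higher in 15 of 15 alternatives, Lif in 14 and Osmr in 13. The number of members called higher was 2 to 5 when single libraries were left out, with 2 without control replicate 2, where Lif (2.53, adjusted p = 0.0535) and Osmr (1.09, 0.0595) were lost, and the number called lower was 0 to 1. Leaving out single libraries moved the log2 fold change of Lif between 2.30 and 2.78, of Osmr between 1.03 and 1.25, of Il6st between 0.14 and 0.50 (called without LPS replicate 3), of Il11ra1 between -0.45 and -0.34, of Osm between 0.21 (without LPS replicate 3) and 1.55 (without control replicate 3) and of Il11 between -0.12 and 1.59, reversing without LPS replicate 3. Il11ra1 was not called without a count filter (-0.41, adjusted p = 0.0657) or by limma-voom (-0.39, 0.051), which left 0 members called lower in both. With the replicate block Osm was called at 0.84, and the block changed no other member's call. Without replicate 3 of both groups, a setting chosen after seeing the data, Il6st (0.48) and Lifr (0.37) were called, Osmr was at 1.32 and 6 members were called higher. The cause of these changes was not tested.

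Among the other named genes, Gfap was 0.26 without control replicate 3, 0.18 without LPS replicate 1 and 0.25 without LPS replicate 2, and fell to -0.74 without LPS replicate 3, against -0.039. Over all tested genes, 1384 were called higher and 1022 lower, against 2079 and 1673 by DESeq2, 2343 and 2273 with the replicate block, and 3498 and 3159 without replicate 3 of both groups. Single left-out libraries gave 379 to 1964 higher and 112 to 1426 lower. Upper-quartile factors moved the median of all genes to -0.12 with 1589 genes lower, and library size alone to -0.18 with 2054 lower. No direction of a member changed under any scaling. Counts were low for Il11 (21 to 125 per library) and Osm (36 to 164), which limits their precision.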
